A study of Mus musculus with 2 samples.

Results

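The 10 genes described here, Kdm6a, Kdm6b, Kmt2c, Kmt2d, Ncoa6, Paxip1, Pagr1a, Dpy30, Ash2l and Rbbp5, are the subunits and close relatives of the UTX, MLL3 and MLL4 histone-modifying complexes. They are a list of gene names that was drawn up with earlier results of these data known, and all 10 are among the 32285 genes counted in both libraries. The study holds 2 mouse single-cell libraries with barcoded antibodies, 1 from control cells and 1 from cells labelled Utx-deleted, with no replicate library. In both, the cells were bone marrow cells positive for CD45.2 and Kit, taken 10 weeks after transplantation. The labels give neither the strain, the sex, the host, the allele nor the agent or cell type in which Utx was deleted, and they give no genotype for the control beyond that word and the library name wt. Since each group is 1 library, no test was possible, no p-value is given, and every interval below covers counting error only.

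Kdm6a encodes UTX, an enzyme that removes methyl groups from lysine 27 of histone H3, a mark of repressed chromatin. UTX is also a subunit of the complexes built around MLL3 (Kmt2c) and MLL4 (Kmt2d), which place methyl groups on lysine 4 of histone H3, mainly at enhancers. Ncoa6, Paxip1 (PTIP) and Pagr1a (PA1) are subunits particular to the MLL3 and MLL4 complexes, whereas Dpy30, Ash2l and Rbbp5 belong to the core shared by all complexes of the MLL and SET1 family. Kdm6b (JMJD3) is a second enzyme for lysine 27, known for its induction in myeloid cells by inflammatory signals, and is not a stable subunit of these complexes. In blood formation, UTX and the MLL complexes are known as regulators of stem-cell maintenance and myeloid differentiation.

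The 250 bases upstream of the RefSeq start site are shown for 3 genes. Their shares of a cell's RNA differed in unlike ways between neutrophil progenitors and late neutrophils, as described further on. These are Kdm6a, the gene named in the deletion, Kmt2c, whose share was higher in late neutrophils, and Paxip1, whose share was lower. Counted per cell, Kmt2c too was lower in late neutrophils. Sequences are from RefSeq on GRCm38.p6 and run 5′ to 3′ on the strand of the gene, with capitals marking matches, on either strand, to the letters of a GC box (GGGCGG), an E-box (CACGTG) or the core of an NRF1 site (GCATGC). Matches may overlap one another. CCAAT and CCGGAAG were also searched and have no match in these 3 windows.
Kdm6a, chrX:18162325-18162574, plus strand: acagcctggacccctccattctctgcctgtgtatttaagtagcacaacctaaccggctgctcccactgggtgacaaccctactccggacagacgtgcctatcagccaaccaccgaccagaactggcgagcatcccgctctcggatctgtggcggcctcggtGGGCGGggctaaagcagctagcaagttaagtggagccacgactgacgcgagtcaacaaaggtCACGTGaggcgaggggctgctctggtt
Kmt2c, chr5:25498784-25499033, minus strand: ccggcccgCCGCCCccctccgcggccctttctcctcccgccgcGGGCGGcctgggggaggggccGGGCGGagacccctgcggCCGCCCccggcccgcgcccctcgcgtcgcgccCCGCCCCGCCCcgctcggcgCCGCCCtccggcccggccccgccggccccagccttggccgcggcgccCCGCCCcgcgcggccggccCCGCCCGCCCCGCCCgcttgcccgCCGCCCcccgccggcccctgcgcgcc
Paxip1, chr5:27791551-27791800, minus strand: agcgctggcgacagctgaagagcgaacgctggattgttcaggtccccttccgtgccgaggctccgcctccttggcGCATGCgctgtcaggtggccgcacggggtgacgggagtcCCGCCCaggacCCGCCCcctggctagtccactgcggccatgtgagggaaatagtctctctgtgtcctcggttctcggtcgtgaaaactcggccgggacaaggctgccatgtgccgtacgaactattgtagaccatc
The Kdm6a window holds 1 GC box, 1 E-box and 15 CG dinucleotides. The Kmt2c window holds 12 GC boxes and 48 CG dinucleotides, more than 99.8% of the 32851 mouse windows of the same length, whose median is 6. Paxip1 has 2 GC boxes, 1 NRF1 core match and 22 CG dinucleotides. Its window lies upstream of the RefSeq start site but overlaps the GENCODE M21 span of the gene, which reaches 27791691. Over all 32851 windows, 32.7% hold a GC box, 6.02% an E-box and 6.70% an NRF1 core. A window was found for 8 of the 10 genes.

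Read counts were deep and alike in both libraries. The deposited matrices hold 7827 control barcodes with 122130256 gene UMIs (unique molecular identifiers, each 1 captured RNA molecule) and 7883 barcodes with 129736034 gene UMIs in the library labelled Utx-deleted. After filters on detected genes, mitochondrial share and doublet score, 7011 and 7206 cells were kept, with medians of 12367 and 11816.5 UMIs per cell. The libraries shared 17 barcodes. Cells carried 2 hashtag antibodies whose meaning the labels do not give, and hashtag 1 and hashtag 2 cells are used below as a view of the spread inside a library, not as replicates.

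Stages were ranges of summed marker UMIs per 10000 UMIs of a cell, and no member gene entered them. A stem-cell gate (Hlf, Mecom, Procr, Meis1 and others) held 187 control cells and only 48 of the library labelled Utx-deleted, under the minimum of 50 for a ratio, and an early myeloid gate (Cpa3, Cd34, Gata2 and others) held 136 and 33. The neutrophil lineage was divided into 5 stages. An Elane gate of neutrophil progenitors (Elane, Mpo, Prtn3, Ctsg) held 537 and 593 cells. Among cells rich in Ltf, Camp, Ngp and Lcn2, those also rich in Fcnb numbered 1100 and 562, cycling ones 1131 and 1357, and post-mitotic ones 1339 and 1856. Late neutrophils (Retnlg, Mmp8, Mmp9, Cxcr2, Il1b, Ccl6) numbered 1665 and 1815. A cell in several of these ranges was assigned to late neutrophils first, then to Fcnb-high and then to cycling cells. Fcnb-high cells thus also carried cycling markers, at 23.7 and 17.7 UMIs per 10000, against 39.1 and 32.7 in cycling Ltf cells. The order of the Fcnb-high and cycling stages was not tested. These 5 stages together made up 82.3% of control and 85.8% of the other library's kept cells. Barcodes with both hashtags, a sign of doublets, remained among the kept cells and were unequal between the libraries, with 204 in the control and 451 in the other. They made up 50 of 1131 and 173 of 1357 cycling Ltf cells and 50 of 1339 and 154 of 1856 post-mitotic Ltf cells. The stages are ranges and not types. Between 15.8% and 89.6% of the cells of a stage lay within 1.5-fold of at least 1 of the cut values, not always that of their own stage.

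The Kit label held at the RNA level for the early stages and much less for the late ones. Kit, which encodes the receptor used for the sort, had a UMI in 95.5% and 95.8% of Elane-gated cells but in only 16.1% and 13.3% of late neutrophils, where its level was 31.5 and 26.0 CPM (UMIs per 1e+06 UMIs) against 158 and 190 in the Elane gate. Markers of B cells summed to at most 0.299 UMIs per 10000, and macrophage markers to at most 0.588, in the 5 neutrophil-lineage stages of either library. In Elane-gated cells the list for T or NK cells summed to 6.62 and 5.31 and that for monocyte progenitors to 2.03 and 2.41, and their part in the members' values was not tested.

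Kdm6a, the gene named in the deletion (ENSMUSG00000037369, chrX:18162575-18279936 in GENCODE M21 on GRCm38, the annotation used for every gene position here), was present at nearly the same level in both libraries. Over all kept cells it had 11880 UMIs in the control and 11802 in the library labelled Utx-deleted, or 110 and 103 CPM, a log2 ratio of the second over the first of -0.09 (95% interval -0.13 to -0.05). In hashtag 1 cells the log2 ratio was -0.09 and in hashtag 2 cells -0.07. The median of all 13558 genes with at least 100 UMIs was -0.11, so Kdm6a lay near the middle of all genes, and under TMM scaling its log2 ratio was 0.03. The chemistry reads from the 3′ end of transcripts, and neither the deleted part of the gene nor the position of the reads is known here. These values therefore do not check the deletion, and directions below are given for the library labelled Utx-deleted.

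Within the 5 neutrophil-lineage stages, Kdm6a had the same level in both libraries to within counting error. In Elane-gated cells it was at 99.5 CPM in each. The pairs were 76.9 and 76.0 CPM in Fcnb-high cells, 77.7 and 74.9 in cycling Ltf cells, 98.5 and 101 in post-mitotic Ltf cells, and 122 and 121 in late neutrophils. The log2 ratios ran from -0.05 to 0.04 and all 5 intervals held 0. For the hashtags taken apart, the same ratios ran from -0.26 to 0.11 and had the same sign in 1 of the 5 stages.

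Kdm6a was higher in the stem-cell and early myeloid gates than along the neutrophil lineage. In the control it was at 220 CPM in the stem-cell gate (917 UMIs), 176 in the basophil or mast cell gate, 174 in the megakaryocyte gate and 159 in the early myeloid gate, and 2.86 times lower, at 76.9 CPM, in Fcnb-high cells. In the library labelled Utx-deleted it was at 204 CPM in the stem-cell gate (259 UMIs) and 248 in the early myeloid gate (191 UMIs in 33 cells), with its lowest level, 74.9 CPM, in cycling Ltf cells. With the stem-cell and early myeloid gates joined, a step added after the cell numbers were seen, the levels were 192 and 221 CPM and the log2 ratio 0.20 (0.05 to 0.36). That difference was carried by hashtag 1 cells, with a log2 ratio of 0.50, and was 0.01 in hashtag 2 cells, so it was not larger than the spread inside the libraries. In the basophil or mast cell gate Kdm6a was at 176 and 221 CPM, a log2 ratio of 0.33 (0.12 to 0.54), 1.25-fold higher as were 11.7% of genes. This too rested on 1 hashtag, with 0.14 (-0.19 to 0.45) in hashtag 1 and 0.48 (0.18 to 0.78) in hashtag 2 cells. There the gates differed in makeup as well, with Kit at 254 CPM in the control and 591 CPM in the other library, and the part of that difference was not tested.

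**Figure D1:**
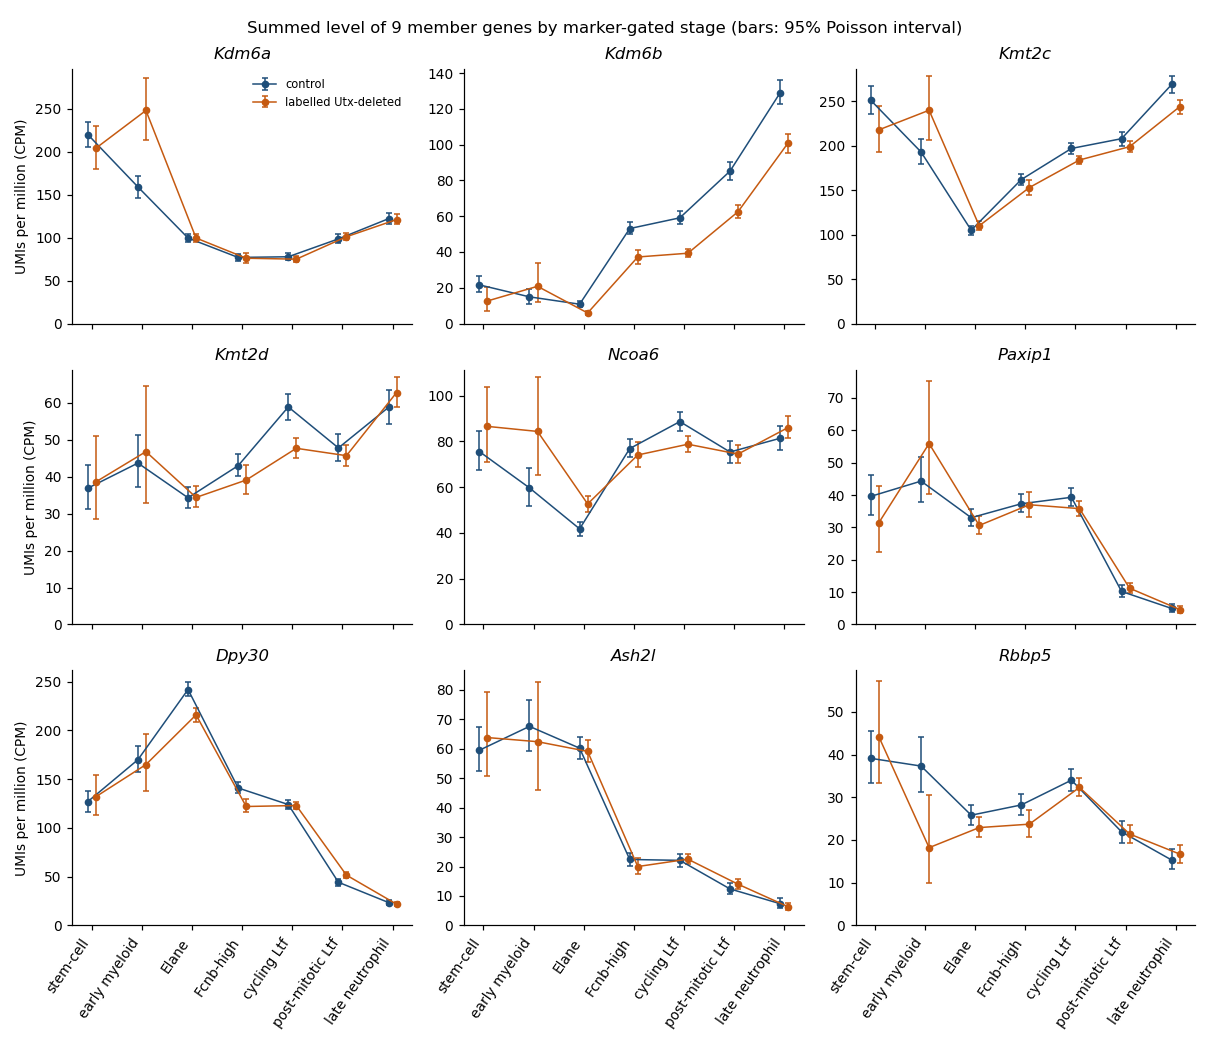
Level of 9 of the 10 genes in the 7 stages from stem-cell gate to late neutrophils, in CPM, with control in blue, the library labelled Utx-deleted in orange, and bars for the 95% Poisson interval of the UMI sum (lines only join the stages). Kdm6a overlaps between libraries from the Elane gate on, Kdm6b lies lower in the library labelled Utx-deleted in the last 5 stages, and Paxip1, Dpy30 and Ash2l reach their lowest levels in late neutrophils.

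Kdm6b (ENSMUSG00000018476, chr11:69398508-69413675) was lower in the library labelled Utx-deleted at every one of the 5 neutrophil-lineage stages. In Elane-gated cells it had 182 UMIs in the control and 98 in the other library, or 10.8 and 5.89 CPM, a log2 ratio of -0.87 (-1.24 to -0.51), which is 1.82-fold lower. In Fcnb-high cells the levels were 53.1 and 37.2 CPM, a log2 ratio of -0.51 (-0.69 to -0.34). Cycling Ltf cells had 59.1 and 39.3 CPM, a log2 ratio of -0.59 (-0.71 to -0.46). In post-mitotic Ltf cells Kdm6b was at 85.2 and 62.5 CPM, a log2 ratio of -0.45 (-0.56 to -0.33). Late neutrophils had 129 and 101 CPM, a log2 ratio of -0.36 (-0.47 to -0.25). The counting intervals of the 2 libraries did not overlap at any of the 5 stages. How many of all genes show the same was not counted.

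The direction for Kdm6b was the same in both hashtag populations at each of the 5 stages, and without barcodes that carried both hashtags its ratios were -0.86, -0.55, -0.61, -0.41 and -0.36 in the same order of stages. The 10 log2 ratios, 1 per hashtag and stage, ran from -0.95 to -0.28. Inside a library, hashtag 2 differed from hashtag 1 by log2 values from -0.18 to 0.07 at these stages, which is less than any of the 5 ratios between libraries. Whether the hashtags are animals is not known, and the difference between 2 libraries cannot be told apart from a difference between their preparations. Over all kept cells the ratio was smaller, at 48.9 and 40.0 CPM or a log2 ratio of -0.29 (-0.35 to -0.23), and there the hashtags differed, with -0.10 for hashtag 1 and -0.49 for hashtag 2. Shares of the stages moved with this pooled value: late neutrophils, where Kdm6b is highest, made up 667 of the 3253 hashtag 1 cells and 960 of the 3506 hashtag 2 cells in the control, against 874 of 3163 and 874 of 3553 in the other library. Their part in the difference between the hashtags was not tested.

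Against all genes, Kdm6b was toward the low end but not alone there. At 1.25-fold or more lower, Kdm6b was counted among 10.2% of genes in Elane-gated cells, 17.7% in Fcnb-high, 12.7% in cycling Ltf, 13.3% in post-mitotic Ltf cells and 18.3% in late neutrophils. At 1.5-fold or more lower it was counted in Elane-gated cells, among 4.14% of genes, and in cycling Ltf cells, among 5.20%. Its percentile among the genes tested, where 0 is the lowest ratio, was 1.99 in Elane-gated cells, 7.83 in Fcnb-high, 5.17 in cycling Ltf, 8.08 in post-mitotic Ltf cells and 16.2 in late neutrophils. Of the 9 members tested in each of these 5 stages, Kdm6b was the 1 counted lower at 1.25-fold, so the members' count is near or below the share of all genes.

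In 4 gates outside the 5 neutrophil-lineage stages, the Kdm6b intervals held 0. Of these, the monocyte gate was assigned before the Elane gate and also carried the Elane-gate markers, at 160 and 206 UMIs per 10000. Kdm6b levels in the monocyte gate were 9.23 and 8.24 CPM, a log2 ratio of -0.17 (-0.55 to 0.23). In the joined stem-cell and early myeloid gates they were 18.5 and 15.7 CPM, a log2 ratio of -0.20 (-0.84 to 0.32). The basophil or mast cell gate had 29.0 and 33.3 CPM, a log2 ratio of 0.21 (-0.35 to 0.75). The megakaryocyte gate had 38 and 16 UMIs, or 14.1 and 8.76 CPM, a log2 ratio of -0.63 (-1.62 to 0.19). The sums of these gates rest on 16 to 149 UMIs per library, so their intervals are wide. The basophil or mast cell interval ended above all 5 ratios of the neutrophil stages, the monocyte interval ended above those of Elane-gated and cycling cells, the interval of the joined early gates held 4 of the 5, and that of the megakaryocyte gate held all 5.

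No background of empty droplets was measured here, and the part of free RNA in the low Kdm6b level of progenitors was not tested. The neutrophil genes Ltf, Camp, Ngp and Lcn2 summed to 3.83 and 4.44 UMIs per 10000 in Elane-gated cells, against 813 to 1194 in the Ltf-rich and late stages. For every 10000 UMIs of those genes, Elane-gated cells held 282 (control) and 133 (labelled Utx-deleted) UMIs of Kdm6b, whereas the neutrophil stages held 3.12 to 15.9. 

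The makeup of the stages differed between the libraries beside these Kdm6b ratios. In Elane-gated cells the 4 Elane-gate markers summed to 257 and 273 UMIs per 10000 and the pre-neutrophil markers (Fcnb, Chil3, Cebpe, Gstm1) to 5.42 and 4.55. The Elane-gate markers summed to 20.7 and 8.01 in Fcnb-high cells, 8.81 and 18.1 in cycling Ltf cells, and 8.77 and 19.3 in post-mitotic Ltf cells, so the library with more of them was not the same at each stage. In late neutrophils the pre-neutrophil markers summed to 34.8 and 49.4. The part of these differences in the Kdm6b values was not tested. Kdm6b overlaps an antisense gene, Kdm6bos, which had 93 and 125 UMIs over all kept cells, against 5294 and 4572 of Kdm6b. In late neutrophils Kdm6bos had 11 and 37 UMIs, a log2 ratio of 1.28 (0.36 to 2.48), opposite in sign to that of Kdm6b. Whether the counting used strand is not given in the sources used here, so reads of this pair may not be told apart.

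**Figure D2:**
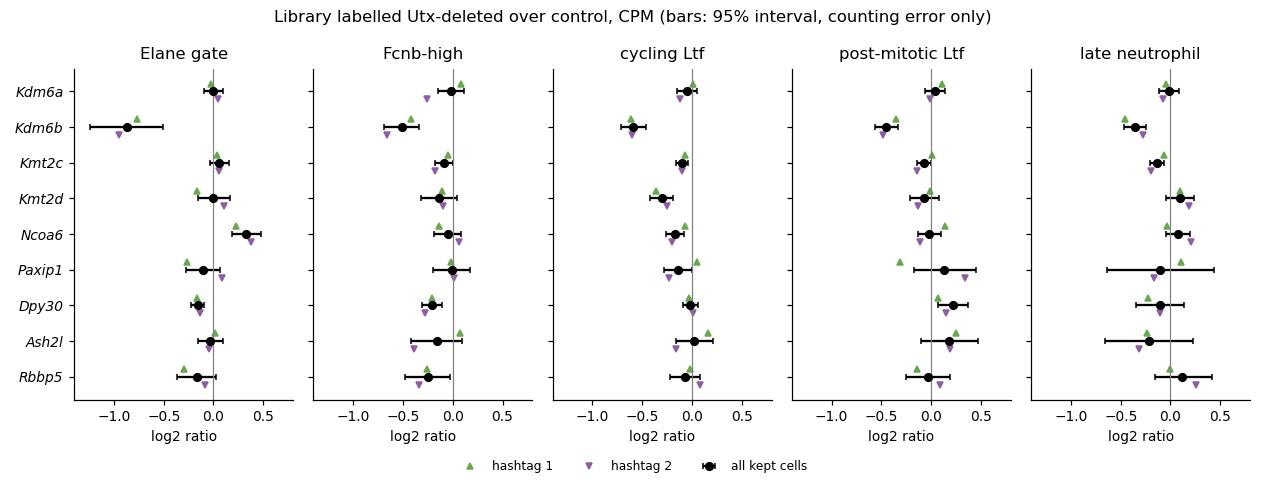
Log2 ratio of the library labelled Utx-deleted over the control, in CPM, for 9 genes at the 5 neutrophil-lineage stages, with the 95% counting interval as bars and the hashtag populations as triangles. Kdm6b lies left of 0 at all 5 stages, from -0.87 to -0.36, with both hashtags on the same side, while Kdm6a stays between -0.05 and 0.04.

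The methyltransferases differed little between libraries. Kmt2c (MLL3, ENSMUSG00000038056, chr5:25271798-25498783) was at 181 and 173 CPM over all kept cells, a log2 ratio of -0.07 (-0.10 to -0.04), with 0.02 in hashtag 1 and -0.16 in hashtag 2. Its stage ratios ran from -0.14 in late neutrophils, at 269 and 244 CPM, to 0.06 in Elane-gated cells, at 105 and 110 CPM, and 2 of the 5 intervals lay below 0. Kmt2d (MLL4, ENSMUSG00000048154, chr15:98831669-98871204) was at 44.9 and 44.3 CPM over all kept cells, a log2 ratio of -0.02 (-0.08 to 0.04). At 4 of the 5 stages its interval held 0, and in cycling Ltf cells it was at 58.9 and 47.7 CPM, a log2 ratio of -0.30 (-0.42 to -0.19), with -0.36 for hashtag 1 and -0.25 for hashtag 2. Neither gene was counted as 1.25-fold lower or higher at any of these stages.

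Among the subunits particular to the MLL3 and MLL4 complexes, Ncoa6 had small positive ratios in early cells. This coactivator (ENSMUSG00000038369, chr2:155390656-155473894) was at 41.8 and 52.7 CPM in Elane-gated cells (705 and 877 UMIs), a log2 ratio of 0.33 (0.19 to 0.48), positive in hashtag 1 (0.23) and hashtag 2 (0.38). Hashtag 2 differed from hashtag 1 by 0.28 inside the library labelled Utx-deleted, close to the ratio itself. Ncoa6 was the 1 of 9 members counted there as 1.25-fold higher, where 8.97% of all genes were, so the members' count is near the share of all genes. In the joined stem-cell and early myeloid gates it was at 68.3 and 85.8 CPM, a log2 ratio of 0.34 (0.07 to 0.58), where 12.4% of genes were at least 1.25-fold higher. Its hashtag 2 ratio there was 0.19 (-0.18 to 0.52), and hashtag 2 differed from hashtag 1 by -0.43 inside the library labelled Utx-deleted, so this difference was not larger than the spread inside that library. In the later stages its ratios were near 0 or below, from -0.17 in cycling Ltf cells to 0.08 in late neutrophils, and over all kept cells it was at 68.6 and 69.4 CPM, a log2 ratio of 0.02. In the basophil or mast cell gate it was at 63.3 and 50.3 CPM, 1.25-fold lower as were 15.1% of genes, with an interval that held 0 (-0.74 to 0.08).

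Paxip1, which encodes the adaptor PTIP (ENSMUSG00000002221, chr5:27740080-27791691), was at 31.1 and 26.4 CPM over all kept cells, a log2 ratio of -0.24 (-0.31 to -0.17). Within the 5 stages all intervals held 0 and the ratios ran from -0.14 to 0.13, with opposite signs in the hashtags at every stage. Stages where Paxip1 is low held a larger part of the library labelled Utx-deleted: post-mitotic Ltf cells made up 25.8% of its kept cells against 19.1% of control cells, and late neutrophils 25.2% against 23.7%. Stages where Paxip1 is higher moved both ways. Cycling Ltf cells made up 18.8% against 16.1% in the control, the monocyte gate 9.05% against 4.18%, and Fcnb-high cells 7.80% against 15.7%. With the same weight for each stage, the pooled Paxip1 ratio was -0.08. The part of the stage shares in the pooled value was not tested. Pagr1a (ENSMUSG00000030680, chr7:127015033-127017352) was near the detection limit, with 92 UMIs in the control and 97 in the other library over all kept cells, or 0.851 and 0.848 CPM. It overlaps Gm42742 on the same strand and its near-identical copy Pagr1b is not analysed here, so its counts are uncertain.

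The shared core subunits differed little between libraries. Dpy30 (ENSMUSG00000024067, chr17:74299474-74323944) was at 139 and 126 CPM over all kept cells, a log2 ratio of -0.14 (-0.17 to -0.11). Its ratio over all kept cells was -0.31 in hashtag 1 but 0.04 in hashtag 2. In Elane-gated cells it was at 242 and 216 CPM, a log2 ratio of -0.16 (-0.23 to -0.10), with -0.17 in hashtag 1 and -0.14 in hashtag 2. In Fcnb-high cells it was at 141 and 122 CPM, a log2 ratio of -0.21 (-0.31 to -0.11), with -0.21 and -0.28. In post-mitotic Ltf cells it was at 44.3 and 51.6 CPM, a log2 ratio of 0.22 (0.07 to 0.37), but both hashtag ratios were smaller and their intervals held 0, at 0.07 (-0.17 to 0.32) and 0.15 (-0.07 to 0.38). Without barcodes that carried both hashtags the Dpy30 ratio there was 0.11. Ash2l (ENSMUSG00000031575, chr8:25815996-25847694) was at 37.0 and 32.1 CPM over all kept cells, a log2 ratio of -0.20 (-0.27 to -0.14), but all 5 stage intervals held 0. Rbbp5 (ENSMUSG00000026439, chr1:132477365-132505659) was at 27.9 and 25.6 CPM over all kept cells, a log2 ratio of -0.12 (-0.20 to -0.05), with -0.23 in hashtag 1 and -0.00 in hashtag 2. Among the 5 stages its interval lay below 0 in Fcnb-high cells alone, at 28.2 and 23.7 CPM.

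Over all kept cells 9 of the 10 members had a log2 ratio below 0, as did 70.5% of all 13558 genes, and 7 had an interval wholly below 0, as did 52.4%. With TMM scaling 4 of the 10 were below 0, and Kdm6a, at 0.03, was not among them. In CPM without that scaling, Kdm6a, Kdm6b, Paxip1 and Ash2l were below 0 in each hashtag population taken apart. The share of all genes below 0 in both hashtags was not counted, so these 4 are not read as a result about the members. No member reached 1.25-fold in either direction. Of all 13558 genes, 20.7% were at least 1.25-fold lower and 7.11% at least 1.25-fold higher, while 5.36% were at least 2-fold lower and 1.39% at least 2-fold higher. The median member log2 ratio was -0.11, beside -0.12 for all genes with at least 20 UMIs. TMM scaling moved every log2 ratio over all cells up by 0.12.

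In the monocyte gate (F13a1, Irf8, Ly86, Csf1r, Ms4a6c), with 293 and 652 cells, the members stood close to their levels in the Elane gate. The 2 gates are not separate in their markers, since the monocyte gate was assigned before the Elane gate. Its cells summed to 160 and 206 UMIs per 10000 of the Elane-gate markers, against 257 and 273 in the Elane gate. Kmt2c was at 114 and 118 CPM there, Dpy30 at 204 and 207, Ash2l at 58.3 and 58.5, and Ncoa6 at 43.8 and 48.0. All 9 members tested had ratios short of 1.25-fold, where 9.51% of genes were higher and 10.6% lower. The megakaryocyte gate, with 113 and 50 cells, had Kmt2c at 224 CPM in each library and Kdm6a at 174 and 200 CPM. Both genes were nearer to the stem-cell gate than to the Elane gate. Ncoa6, at 70.3 and 69.0 CPM, was nearer to the stem-cell gate in the control. In the other library Ncoa6 lay between the stem-cell gate (86.6 CPM) and the Elane gate (52.7 CPM). Kdm6b there, given above, was nearer to the Elane gate in the control. In the other library Kdm6b lay between the stem-cell gate (12.6 CPM, 16 UMIs) and the Elane gate (5.89 CPM). Kmt2d was nearer to the Elane gate in the library labelled Utx-deleted, at 31.7 CPM. Rbbp5 was highest in the stem-cell gate of both libraries, at 39.1 and 44.1 CPM, 2.56-fold and 2.64-fold above late neutrophils. Ash2l, by contrast, was at 69.5 CPM in the basophil or mast cell gate of the control and at 70.6 CPM in the megakaryocyte gate of the other library.

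A few gates were too small for a ratio in 1 or both libraries. In the erythroid gate (116 and 19 cells) Kdm6a was at 181 and 192 CPM and Ash2l at 72.0 and 58.7. B-cell-gated cells (82 and 38) had Kdm6a at 173 and 135 CPM and Dpy30 at 182 and 149. In the dendritic cell gate (32 and 38) Kdm6a was at 162 and 224 CPM, on 74 and 132 UMIs.

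Along neutrophil development the members showed unlike patterns, and these were alike in both libraries. The share of a cell's RNA taken by the large enzymes and Ncoa6 was higher in late neutrophils than in Elane-gated progenitors, and that of Paxip1, Dpy30 and Ash2l was lower. Cells of 1 library share their source, so these are descriptions of each library and carry no test. Of 9 members with at least 100 UMIs over both stages, 2 (Kdm6b, Kmt2c) were at least 2-fold higher in CPM in each library, where 18.9% of control genes and 17.1% of genes in the other library were. At least 2-fold lower were 3 members (Paxip1, Dpy30, Ash2l), where 50.8% and 50.1% of genes were. The median gene had a log2 ratio of late over Elane of -1.06 and -1.01, and 6 of the 9 members lay above it in each library.

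Of the 9 members tested, Kdm6b had the highest fold of late neutrophils over the Elane gate. Its level was 11.9-fold higher in late neutrophils than in the Elane gate in the control (log2 3.58, 3.36 to 3.81) and 16.9-fold higher in the other library (log2 4.08, 3.80 to 4.41), above 95.5% and 96.2% of genes. As a fold, the largest step was from Elane-gated to Fcnb-high cells, 4.90-fold in the control and 6.28-fold in the other library. The step from post-mitotic Ltf cells to late neutrophils was 1.52-fold and 1.61-fold, though in CPM it was the larger, from 85.2 to 129 and from 62.5 to 101. For the step to Fcnb-high cells, 12.4% and 10.8% of genes were at least 2-fold higher.

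Kmt2c was 2.55-fold higher in late neutrophils than in the Elane gate in the control (log2 1.35, 1.27 to 1.44) and 2.22-fold higher in the other library (log2 1.15, 1.07 to 1.24). Ncoa6 was 1.95-fold and 1.63-fold higher, and Kmt2d 1.71-fold and 1.82-fold. None of these 3 genes differed by 2-fold at any single step between neighbouring stages. Kdm6a was 1.23-fold and 1.22-fold higher, but through a low point, since it was 1.29-fold and 1.31-fold lower in Fcnb-high than in Elane-gated cells. Kmt2c, too, was higher in the stem-cell gate, at 251 and 218 CPM, than in the Elane gate, and its level in early cells came near that of late neutrophils.

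Dpy30 and Paxip1 were much lower in post-mitotic than in cycling cells. Dpy30, a small core subunit needed for full activity of the methyltransferases, was 10.3-fold lower in late neutrophils than in the Elane gate in the control and 9.87-fold lower in the other library. It was 2.80-fold and 2.38-fold lower in post-mitotic than in cycling Ltf cells. Paxip1 was level across the Elane, Fcnb-high and cycling stages, at 33.0, 37.3 and 39.3 CPM in the control, and then 3.84-fold lower in post-mitotic cells, at 10.2 CPM. In the other library that step was 3.18-fold, from 35.8 to 11.2 CPM. These 2 were the members at least 2-fold lower at this step in both libraries, where 12.3% and 11.1% of genes were.

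Ash2l followed another course. It was 8.07-fold and 9.23-fold lower in late neutrophils than in the Elane gate, and its first large difference lay earlier, between Elane-gated and Fcnb-high cells, where it was 2.69-fold lower in the control (60.2 to 22.4 CPM) and 2.94-fold lower in the other library (from 59.1 CPM). At that step 35.4% and 37.8% of genes were at least 2-fold lower. Rbbp5, its partner in the core, was at 25.8 and 22.9 CPM in Elane-gated cells and at 15.3 and 16.7 CPM in late neutrophils, 1.68-fold and 1.37-fold lower.

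The direction for 4 of these genes depended on the scale. Late neutrophils held fewer UMIs per cell, with a median of 6362 in the control and 7511 in the other library, against 30314 and 26331 in the Elane gate. Counted as UMIs per cell, Kdm6b was the 1 member that remained higher in late neutrophils, at 0.339 and 0.862 UMIs per cell in the control and 0.165 and 0.806 in the other library, or log2 differences of 1.34 and 2.27. Kmt2c went from 3.31 to 1.79 and from 3.08 to 1.95 UMIs per cell, Kdm6a from 3.13 to 0.816 and from 2.79 to 0.969, and Dpy30 from 7.61 to 0.157 and from 6.07 to 0.175. On that scale 83.9% and 80.6% of all genes were at least 2-fold lower and 5.24% and 6.07% at least 2-fold higher. Lower capture and less RNA per cell cannot be told apart here.

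**Figure D3:**
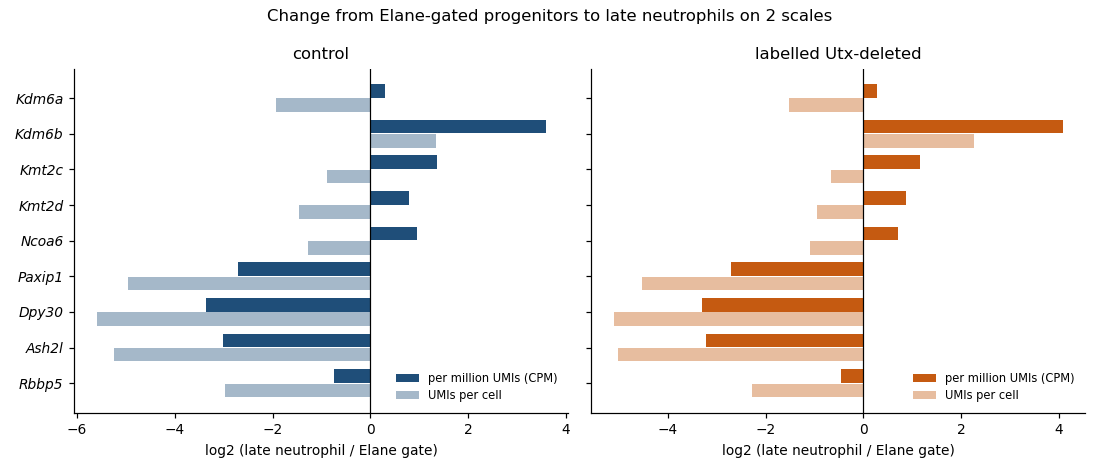
Log2 of late neutrophils over Elane-gated cells for 9 genes in each library, as CPM (dark bars) and as UMIs per cell (light bars). Kdm6a, Kmt2c, Kmt2d and Ncoa6 lie right of 0 in CPM and left of 0 per cell, Kdm6b lies right of 0 on both scales, and Paxip1, Dpy30, Ash2l and Rbbp5 lie left of 0 on both.

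Gene length and nuclear RNA moved with the same axis. Over all tested genes, the median log2 ratio of late over Elane in CPM was -1.84 in the control and -1.60 in the other library for the shortest 10th of gene spans (intron included), -0.21 and -0.34 for the next to longest, and -0.41 and -0.48 for the longest. Kdm6a (117 kb) and Kmt2c (227 kb) are in the longest decile, where they exceeded 60.0% and 75.8% of genes in the control. Kdm6b spans 15.2 kb and exceeded 94.9% and 95.8% of the genes of its own decile. Dpy30 (24.5 kb), Ash2l (31.7 kb) and Paxip1 (51.6 kb) lay above 17.0% to 21.2% of the genes of theirs. Malat1, a long RNA that stays in the nucleus, was at 3448 and 3659 CPM in the Elane gate and 7998 and 7134 CPM in late neutrophils, and the 50 most abundant genes took 17.5% and 18.1% of UMIs in the Elane gate against 35.3% and 39.7% in late neutrophils. The part of nuclear RNA, of intron reads and of these abundant genes in the members' values was not tested, and whether intronic reads were counted is not given in the sources used here.

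**Figure D4:**
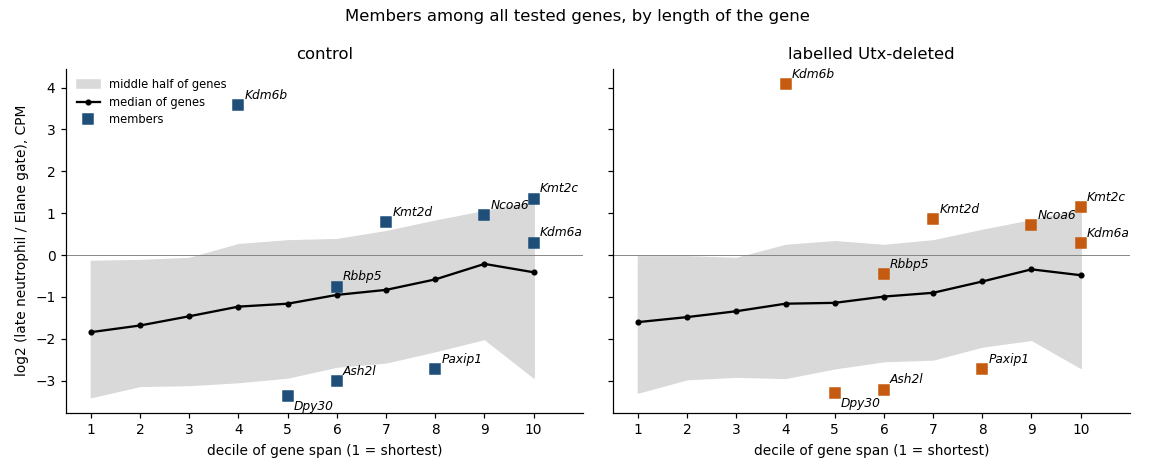
Log2 of late neutrophils over Elane-gated cells in CPM against the decile of gene span, with the median of all tested genes as a line, the interquartile range in grey and the members as squares. The median is higher for longer genes up to the ninth decile and lower again in the longest, and Kdm6b stands far above the genes of its own decile while Dpy30, Ash2l and Paxip1 lie below the grey band.

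Shares of cells with a UMI, with each cell thinned to 2000 UMIs to put both libraries and all stages at 1 depth, differed in no common direction for Kdm6a and were lower for Kdm6b in the library labelled Utx-deleted at the 4 stages from Fcnb-high cells on. For Kdm6a the share over all cells was 18.7% (17.8 to 19.6, exact binomial interval) in the control and 18.1% (17.2 to 19.0) in the other library, against 64.3% and 63.5% unthinned, and 165 and 79 shallower cells were left out. In the stem-cell gate it was 35.8% of 187 and 35.4% of 48 cells, and in Fcnb-high cells 13.1% and 12.9%. It was 24.6% and 48.5% in the early myeloid gate (of 134 and 33 cells), 18.7% and 15.4% in Elane-gated, 15.4% and 12.4% in cycling Ltf, 15.7% and 18.1% in post-mitotic Ltf cells and 20.5% and 19.4% in late neutrophils. For Kdm6b the share was 12.7% (11.9 to 13.5) and 10.4% (9.74 to 11.2) over all cells. It was 10.1% (8.36 to 12.0) and 5.39% (3.66 to 7.60) in Fcnb-high cells, 11.7% (9.84 to 13.7) and 8.34% (6.92 to 9.95) in cycling Ltf cells, and 15.7% (13.7 to 17.8) and 12.4% (10.9 to 14.0) in post-mitotic Ltf cells. In late neutrophils it was 22.8% (20.7 to 24.9) and 18.9% (17.1 to 20.8). The intervals of cycling, post-mitotic and late cells overlapped slightly between the libraries. In Elane-gated cells only 15 and 8 cells had a Kdm6b UMI after thinning, too few to read a change, while unthinned the shares were 27.2% (23.5 to 31.2) and 13.8% (11.2 to 16.9), at median depths of 30314 and 26331 UMIs.

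For Dpy30, Paxip1 and Kmt2c the thinned shares differed in the direction of the CPM between the stages given here. Dpy30 had a UMI in 38.5% and 32.5% of Elane-gated cells and in 3.76% and 2.73% of late neutrophils. Paxip1 had one in 8.78% and 6.63% of cycling Ltf cells and in 1.77% and 1.69% of post-mitotic Ltf cells. Kmt2c had one in 16.8% and 18.4% of Elane-gated cells and in 40.6% (38.2 to 43.0) of late neutrophils in the control, with an interval of 35.8 to 40.3 in the other library. CPM and share did not go together at every step. For Dpy30 in the control, Fcnb-high and cycling Ltf cells had 141 and 124 CPM but shares of 21.1% and 22.1%.

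**Figure D5:**
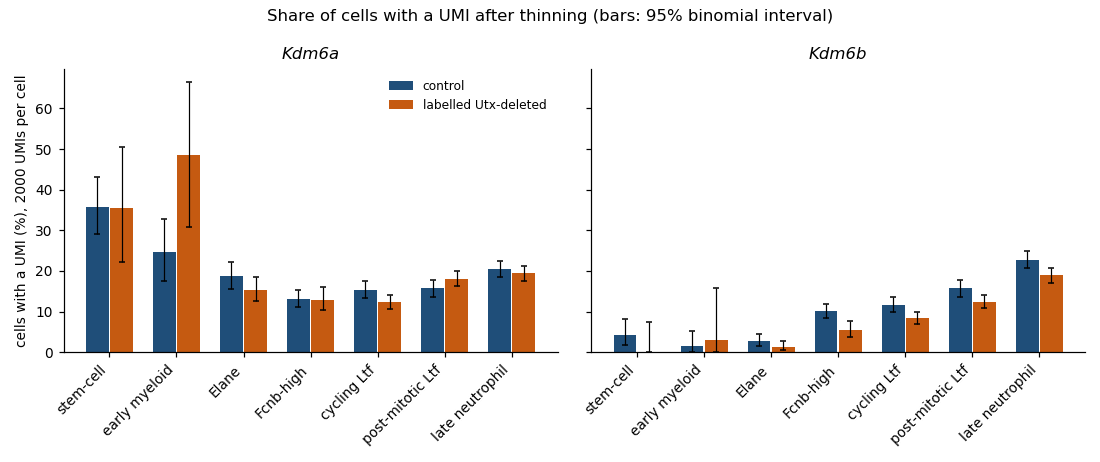
Percent of cells with at least 1 UMI of Kdm6a (left) or Kdm6b (right) after thinning each cell to 2000 UMIs, in control (blue) and the library labelled Utx-deleted (orange), with exact 95% binomial intervals. Kdm6a is highest in the stem-cell and early myeloid gates, and Kdm6b is under 5% in these gates and the Elane gate and highest in late neutrophils, at 22.8% and 18.9%.

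Related genes were read beside the members. The first list held 12 genes: other methyltransferases for lysine 4 and subunits or partners of their complexes (Kmt2a, Kmt2b, Setd1a, Setd1b, Wdr5, Men1, Psip1, Hcfc1, Cxxc1, Wdr82, Bod1l), and Uty, the Y-linked relative of Kdm6a. The first 11 had at least 20 UMIs, and Uty had only 3 and 2. Over all kept cells all 11 were below 0, as were 68.5% of all genes with at least 20 UMIs, and with TMM scaling 5 of the 11 were. Setd1a and Kmt2b, at -0.01, and Setd1b, at -0.02, are among those that changed sign. Their median log2 ratio was -0.11 beside -0.12 for all genes, and none reached 1.5-fold, where 10.6% of genes were lower and 3.17% higher. Wdr5, the core subunit that completes the set of Dpy30, Ash2l and Rbbp5, was the lowest, at 55.3 and 43.3 CPM (log2 -0.35, -0.41 to -0.30). It was lower at all 5 neutrophil-lineage stages, from -0.53 in Elane-gated cells, at 63.6 and 44.1 CPM, to -0.17 in post-mitotic Ltf cells. Outside these stages Wdr5 was at -0.57 in the joined stem-cell and early myeloid gates and -0.39 in the monocyte gate. Of all genes, 10.2% were at least 1.25-fold lower in Elane-gated cells, 14.5% in the joined gates and 10.6% in the monocyte gate. Of the demethylases for lysine 4 (Kdm1a, Kdm1b, Kdm5a, Kdm5b, Kdm5c, Kdm5d), 5 had at least 20 UMIs, with Kdm5d at 0 and 2. Of these 5, 4 were lower and 1 higher, with a median of -0.08, and with TMM scaling 1 was lower. None of these genes reached 1.5-fold over all kept cells.

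The genes whose levels followed Kdm6a most closely over 16 points, the 8 stages of each library with at least 50 cells in both, were Zfp292 (Pearson r of log2 CPM 0.976), Mysm1 (0.974), Rsf1 (0.966), Ubl7 (0.965) and Lysmd1 (0.964), among 10806 genes ranked. For Kdm6b they were Mindy2 (0.989), Midn (0.985), Dennd1c (0.985), Cast (0.980) and Flii (0.978). Points of 1 library share depth and source, so r is a description. Among the members, Dpy30 followed Paxip1 (0.95) and Ash2l (0.91), Kdm6b followed Kmt2d (0.90) and ran against Ash2l (-0.88) and Dpy30 (-0.85), and Kdm6a followed none of the others above 0.43.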

How the data were processed

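Cells were stained with barcoded antibodies and prepared with 10x Genomics 3′ version 3.1 chemistry, per the labels' protocols. The deposited raw counts of UMIs per gene and barcode came from Cell Ranger 7.1.0 with build mm10, per the submitters' processing notes. The aligner settings and the annotation are not given in the sources used here. The members and gene lists were chosen with earlier results of these data known.

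From the counts, cells with at least 500 genes and under 10% mitochondrial UMIs were kept, and the highest 6% of Scrublet scores were left out in each library (467 and 463 cells), since the automatic threshold marked only 1 and 0. This treatment of doublets is incomplete. A hashtag was called at 100 UMIs and 5 times the other. Stage cut values were chosen from marker distributions alone, after these were seen, and for the pre-neutrophil gate Fcnb alone replaced its list. UMIs were summed per library and stage and divided by the total (CPM). Log2 ratios had 1 UMI added to each sum, with exact Poisson, conditional binomial or binomial 95% intervals (Python 3.11.15, scanpy 1.11.5, scipy 1.17.1). Ratios needed 20 UMIs and counts of genes 100 UMIs over both groups compared. UMIs remove PCR copies, but intervals cover counting error only. Genes named as alike are the 5 highest Pearson r among genes with at least 500 UMIs. All members and listed genes were eligible to be named. Gene spans are from GENCODE M21 on GRCm38. The ratio step was tested on simulated data. Alternatives were other scalings (TMM by edgeR 4.0.16), filters, hashtags, cut values, thinning and weights. Antibody counts other than hashtags were not used here, and the list of enhancer coactivators is not reported here as a list.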

Additional observations from a re-analysis of the deposited data

How the results depend on the processing

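No paired analysis was possible because each group is 1 library, so leaving out a replicate could not be done either. The lower Kdm6b level at the 5 neutrophil-lineage stages kept its direction under all 12 alternatives tried for each stage. Its log2 ratio ran from -0.95 to -0.60 in Elane-gated cells, -0.85 to -0.41 in Fcnb-high, -0.61 to -0.43 in cycling Ltf, -0.52 to -0.34 in post-mitotic Ltf cells and -0.46 to -0.26 in late neutrophils. There the 1.25-fold call was lost under 4 of the 12: -0.26 without the 50 most abundant genes, -0.28 in hashtag 2 cells, and -0.31 after thinning and with doubled cut values. Kdm6a over all cells, at -0.09, was near 0 throughout and its sign depended on the scaling: 0.03 with TMM, 0.02 with median-of-ratios factors, -0.02 without the 50 most abundant genes, -0.04 after thinning, -0.04 as a mean over cells and 0.13 with the same weight for each stage. Its difference in the share of cells, -0.596 points at 2000 UMIs, was -1.91 at 4000. No member reached 1.5-fold over all cells except 1, Pagr1a, in hashtag 1 cells. From the Elane gate to late neutrophils, 4 members were at least 2-fold higher in each library without the 50 most abundant genes. These genes took 17.5% and 18.1% of UMIs in the Elane gate and 35.3% and 39.7% in late neutrophils. Leaving them out therefore raises the ratio of every gene. Counted per cell, 1 member (Kdm6b) was at least 2-fold higher, and 7 in the control and 6 in the other library at least 2-fold lower. Against Fcnb-high cells, 1 member (Kdm6b) was at least 2-fold higher. The share of all genes was not counted without the abundant genes or against Fcnb-high cells. Per cell, Kdm6a (-1.94 and -1.53), Kmt2c (-0.88 and -0.66), Kmt2d (-1.46 and -0.94) and Ncoa6 (-1.27 and -1.10) turned negative, a turn that dividing by cells instead of UMIs produces by itself where depth falls. The medians of the lysine 4 methyltransferase and demethylase lists became 0.02 and 0.04 with TMM, and -0.01 for demethylases without the abundant genes. Genes at least 2-fold higher or lower, 188 and 727, numbered 407 and 1252 at 20 UMIs, 77 and 353 at 500 UMIs, and 430 and 1435 at 1.5-fold. The 5 stages held 3.48 points more of the library labelled Utx-deleted, 1.82 with halved and 5.36 with doubled cut values. Comparisons with the joined early gates, against Fcnb-high cells and along the stages within each hashtag were added after the data were seen. Values of Pagr1a and of gates under 100 cells rest on few UMIs and are limited by depth.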
